A study of Mus musculus with 21 samples.

Results

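A set of 10 genes that encode inflammatory cytokines was followed in skin, liver and epididymal fat of mice kept for most of their life on a high-fat diet. They were the array's gene names *Il1a*, *Il1b*, *Il1rn*, *Il6*, *Il10*, *Il18*, *Il33*, *Tnf*, *Tgfb1* and *Tslp*, which is 10 of the 27373 gene names that the array carries. The mice lacked JNK1 (knockout, KO), the stress-activated kinase encoded by *Mapk8*, or were wild type (WT). All were male C57Bl6/J mice aged 45 weeks that ate the high-fat diet from 5 to 44 weeks of age, so age, sex, strain and diet were shared by KO and WT mice. Each array held Cy3-labelled cRNA made from 0.2 ug of the RNA of a tissue. The arrays used were 4 KO and 3 WT for skin, 3 KO and 3 WT for liver, and 4 KO and 3 WT for fat. The labels do not say whether the arrays of a group are separate mice, or which part of *Mapk8* was removed, so p-values measure only the spread between these samples.

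Cytokines are small secreted proteins through which immune and tissue cells set off, sustain and end inflammation. The interleukin-1 family members IL-1α, IL-1β, IL-18 and IL-33 act through related receptors, and IL-1 receptor antagonist, encoded by *Il1rn*, occupies the IL-1 receptor without activating it. TNF and IL-6 are products of macrophages and other cells that raise the acute phase response, and both are made in obese adipose tissue. TGF-β1 and IL-10 restrain inflammation, and TSLP is an epithelial cytokine that acts on dendritic and other immune cells. JNK1 is activated by receptors for several of these proteins and phosphorylates c-Jun, a subunit of the transcription factor AP-1. Keratinocytes of the skin are a known source of IL-1α, IL-18, IL-33 and TSLP.

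Each value below is the signal of a 60-base probe, and for 8 of the 10 genes the array had 1 probe. The first 30 bases of the probes that the main results rest on are given here, in the 5′ to 3′ direction, as the scanner files list them.
Il1b: aggttcctataatatggatgagaattttta
Il1rn: tttcttgaccattcattttatcacttctaa
Il18: tgaaggatagtaaaatgtctaccctctcct
Il33: tcgtacggctgtaacaggtataattgtttc
Tnf: tgggctttccgaattcactggagcctcgaa
Tgfb1: actgcccatcgtctactacgtgggtcgcaa
On mouse build mm9 the files place these probes at chr2:129190347-129190406 on the minus strand (*Il1b*), chr2:24206125-24206184 on the plus strand (*Il1rn*), chr9:50387470-50389598 on the plus strand (*Il18*), chr19:30034990-30035049 on the plus strand (*Il33*), chr17:35336795-35336854 on the minus strand (*Tnf*) and chr7:26489877-26489936 on the plus strand (*Tgfb1*). The *Il18* interval is longer than the probe, whose bases therefore lie in separate stretches of the genome. Which exon or untranslated region lies under a probe was not analysed here.

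The values given are log2 intensities from which the 75th percentile of the array was subtracted, so 0 is that percentile, and differences are KO minus WT on this scale. Levels are compared within a probe and never between genes. A probe is said here to clear background on an array where Feature Extraction marked more of its spots than not as well above background. Between 38.9% (skin KO 1) and 57.2% (fat KO 2) of probes did so. The scanner file of fat WT 2 was not used, because over probes it correlated with r from 0.860 to 0.912 with the skin arrays, against 0.719 to 0.760 with the other fat arrays. Its column in the authors' deposited table correlated with the fat columns (r from 0.953 to 0.980), so that table, whose values are log2 with unstated centring, gives this sample's values. *Mapk8* measured -3.35, -2.98, -3.20 and -3.66 in KO fat, all below the WT fat arrays (difference -2.38, SE 0.184, adjusted p = 0.0167 in limma), and between -4.68 and -3.22 in KO liver, against -1.98 to -1.61 in WT liver (adjusted p = 0.216, short of the threshold). In skin the *Mapk8* probe cleared background on none of the 4 KO arrays but on 2 of the 3 from WT mice, and was not tested. It measured -4.46, -4.17, -5.18 and -5.24 in KO skin, against -4.14, -2.42 and -2.16 in WT skin. WT 1 thus lay beside the KO arrays, on a dim array whose lowest signal above background was -2.53, so its label was not checked by this probe. The keratin gene *Krt5*, a marker of basal keratinocytes, lay between 8.97 and 9.74 over the 7 skin arrays. *Alb*, the hepatocyte gene for albumin, lay between 9.27 and 10.3 over the 6 liver arrays, and *Adipoq*, the adipocyte gene for adiponectin, between 7.64 and 8.47 over the 7 fat arrays used.

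None of the cytokine genes passed the test between KO and WT in any tissue. In limma, with Benjamini-Hochberg adjustment over all genes tested, 0 of the 5 members tested in skin, 0 of 6 in liver and 0 of 8 in fat had an adjusted p below 0.05. Over all genes tested, the share called was 0.0148% of 13496 in skin, 0.0226% of 13300 in liver and 0.0131% of 15245 in fat. Only genes whose probe cleared background on at least 3 arrays of a tissue were tested there, which left out *Il1a* and *Il10* in every tissue. At an unadjusted p below 0.05 there was 1 member in skin and 0 in liver and fat, beside 7.88%, 6.06% and 7.93% of all genes tested. The difference was above 0 for 4 of 5 members in skin, 3 of 6 in liver and 3 of 8 in fat, beside 39.4%, 49% and 62.3% of all genes tested. The KO and WT values did not overlap for 1, 0 and 0 members, beside 11.5%, 11% and 9.35% of all genes tested. The median difference of the tested members was 0.047 in skin, -0.019 in liver and -0.16 in fat, beside -0.10, -0.0048 and 0.076 over all genes tested.

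**Figure D1:**
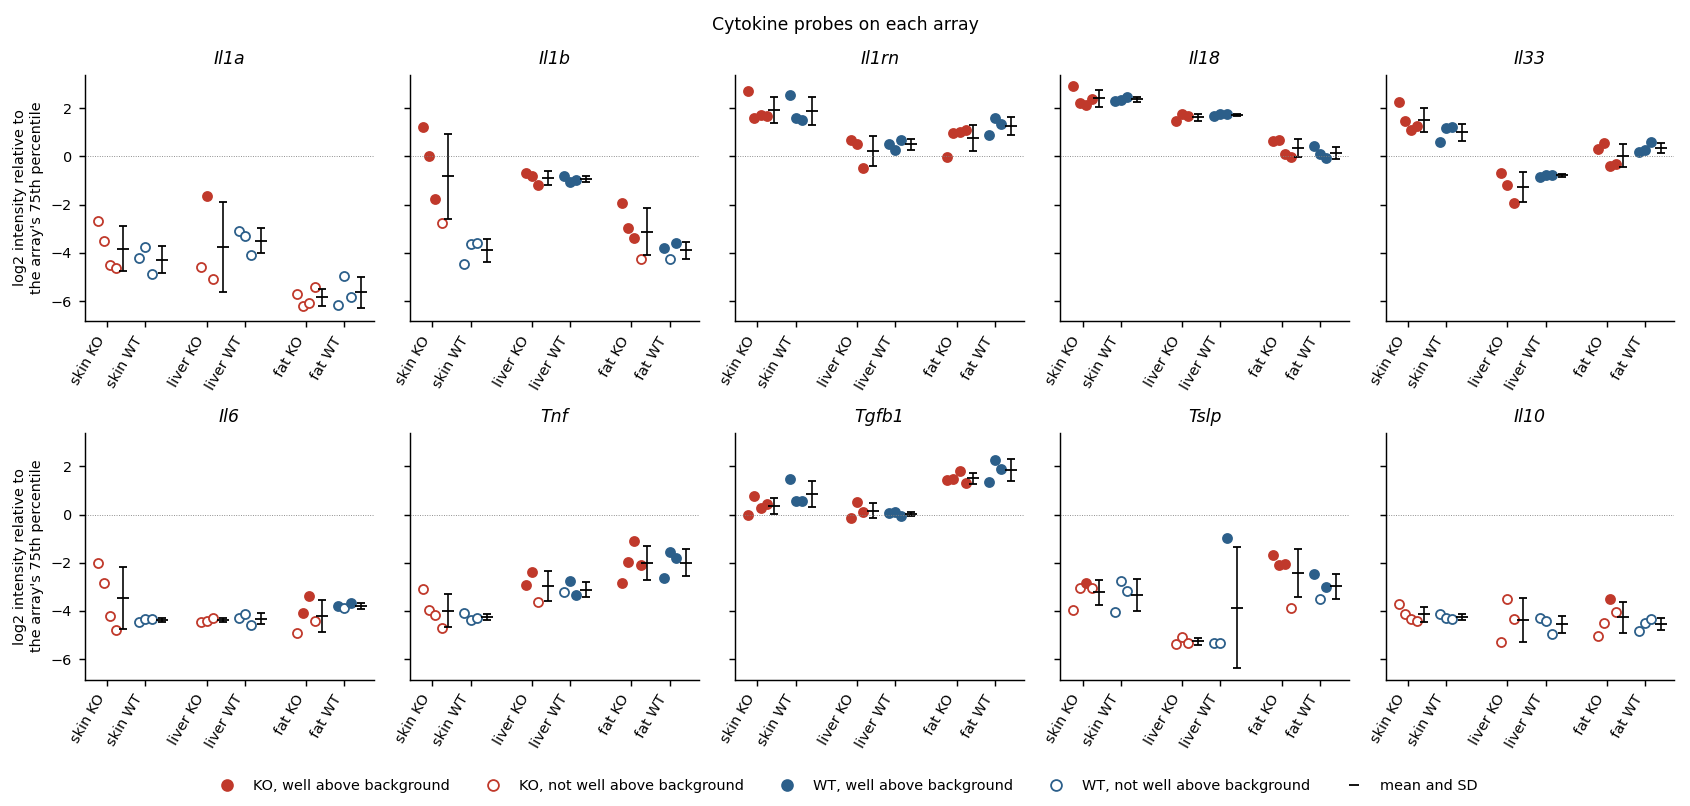
Log2 intensity relative to the array's 75th percentile (y axis) of the 10 cytokine probes on each of the 20 arrays, by tissue and genotype (x axis, KO left of WT). Filled points are well above background, open points are not, and black bars give the group mean and SD; *Il1b* in skin is the panel in which KO and WT points do not overlap, from -2.77 to 1.20 in KO and from -4.45 to -3.58 in WT.

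*Il1b*, which encodes the cytokine that inflammasomes release from activated myeloid cells, was the member with the widest gap between genotypes, and the gap was in skin. It measured 1.20, 0.01, -1.75 and -2.77 in KO skin 1 to 4, against -4.45, -3.65 and -3.58 in WT skin 1 to 3. All 4 KO arrays lay above all 3 WT arrays, while the KO arrays spread over a far wider range than the WT arrays. Groups that did not overlap with KO on the higher side were found for 3.35% of the genes tested in skin. The probe cleared background on 3 of the 4 arrays of KO skin and 0 of the 3 of WT skin, so the gene entered the test through its KO arrays alone. With the scanner's own background subtraction, and WT arrays set at their lowest signals above background, its level was 4.37-fold higher in KO skin. This is not a strict minimum, since the KO mean includes an array that did not clear background. With another background correction (normexp) the difference was smaller, at 1.36 on the log2 scale. Leaving out 1 array at a time moved the 4.37-fold estimate between 2.74-fold (without KO 1) and 6.84-fold (without KO 4). The fitted difference was 3.06 (SE 0.845, 95% interval 1.13 to 5.00), with unadjusted p = 0.00615 and adjusted p = 0.483 in limma, which does not pass. This difference is taken against WT signals that were not well above background, so it is not a measured fold.

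The size and the call of this difference moved with the setting. In a fit of all 6 group means, which estimates the spread from the arrays of every tissue, *Il1b* passed in skin with the same difference of 3.06 (SE 0.679, adjusted p = 0.0345 in limma). There too the gene entered through its KO arrays alone, and its WT skin level was not measured. That fit called 0.963% of the genes tested in skin. The difference was 2.39 without skin KO 1, 2.79 without skin WT 1, 3.71 without skin KO 4, 2.11 without the dim arrays KO 1 and WT 1, 1.36 with another background correction (normexp) and 2.01 in the authors' table. It was above 0 under all 17 alternatives, with adjusted p from 0.0345 to 0.897. The KO skin arrays lay on other slides than the WT skin arrays, so slide and genotype cannot be told apart there. With slide as a random block the adjusted p was 0.599, and this block does not separate them either. KO and WT liver arrays likewise shared no slide, which limits the liver differences of all members in the same way.

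In the neutrophil marker list the KO skin arrays stood in the same order as for *Il1b*. The log2 of the list's summed level was 10.8, 6.82, 6.28 and 4.72 in KO skin 1 to 4, against 4.12, 3.69 and 3.78 in WT skin 1 to 3. The sum is of linear values and is set mainly by its brightest genes, in KO 1 *S100a9* (9.92), *S100a8* (8.65) and *Stfa3* (8.59). The *S100a9* values are thus part of the sum and not a second observation. *S100a9*, which encodes a calcium-binding protein of neutrophils that stressed keratinocytes also make, measured 9.92, 5.81, 5.51 and 3.94 in KO skin, against 2.59, 2.02 and 1.90 in WT skin. *Stfa2l1*, a stefin gene of the list, measured 2.64, -0.24, -1.25 and -4.18 in KO skin, against -4.71, -5.35 and -5.35 in WT skin. On both probes KO 1 was the highest array and KO 4 the lowest KO array, as for *Il1b*. The *Stfa2l1* probe did not clear background in KO 4 or on any WT skin array. Other genes of the list differed from this order. *Retnlg* was highest in KO 2, at -1.49, and did not clear background in KO 4 or WT skin. *Mpo* measured -0.64 in KO 1 and -1.64 in KO 3. It did not clear background in KO 2, at -3.25, or in KO 4, so no order is read between those arrays. *Stfa3* was lower in KO 4, at 2.14, than in WT 1, at 2.90. Of the 14 list genes on the array, 7 were tested in skin, 6 of them had a difference above 0 and 0 were called (median difference 2.61). The neutrophil granule genes *Elane*, *Camp*, *Ngp* and *Ltf*, and also *Csf3r* and *Mmp8*, did not clear background on any skin array. The part of these cells in the *Il1b* result was not tested, and in whole tissue more cells of a type and more RNA per cell cannot be told apart.

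Further marker lists and target genes were read on the same skin arrays, and 0 of their tested genes were called. Of all genes tested in skin, 0.0148% were called and 39.4% had a difference above 0. The hair follicle list summed to 11.2, 9.92, 10.9 and 9.09 in KO skin, against 5.72, 7.79 and 5.95 in WT skin, so the groups did not overlap there either. All 12 tested genes of that list had a difference above 0 and 0 were called (median difference 4.02), and their part in the *Il1b* result was not tested. The sums also did not overlap for the dendritic and Langerhans cell list, at 4.83 to 5.53 in KO skin, against 5.63 to 5.73 in WT skin. Nor did they for the endothelial list (4.35 to 5.02 against 5.19 to 5.62) or the adipocyte list (9.86 to 10.57 against 10.62 to 10.84). The epididymis and testis list did not overlap either, at -0.18 to 3.17 in KO skin, against -0.65 to -0.51 in WT skin. The macrophage and monocyte list summed to between 7.75 and 8.02 in KO skin, against 7.53 to 8.52 in WT skin, which overlap, and 12 of its 15 tested genes had a difference below 0. The keratinocyte list also overlapped, at 11.3 to 12.3 in KO skin, against 11.4 to 12.0 in WT skin, with KO 1 the highest array. Of its 16 tested genes, 12 had a difference above 0 and 0 were called (median difference 0.72). At an unadjusted p below 0.05 in limma were 11 of the 12 tested hair follicle genes, 6 of the 16 keratinocyte genes and 3 of the 7 neutrophil genes. Of all genes tested in skin, 7.88% were. The part of keratinocytes in the *Il1b* result was not tested. *Saa3*, which encodes an acute phase protein induced by IL-1β, measured 5.01, 2.63, 2.69 and 1.95 in KO skin, against 0.45, 2.08 and 1.83 in WT skin (difference 1.62, SE 0.711, adjusted p = 0.555 in limma). *Lcn2*, the gene for lipocalin-2, measured 2.76, -0.08, -1.19 and -2.06 in KO skin, against -2.31, -1.56 and -2.11 in WT skin (difference 1.85, SE 0.981, adjusted p = 0.555). Neither passed and the groups overlapped, with KO 1 the highest of the 7 arrays for both genes.

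**Figure D2:**
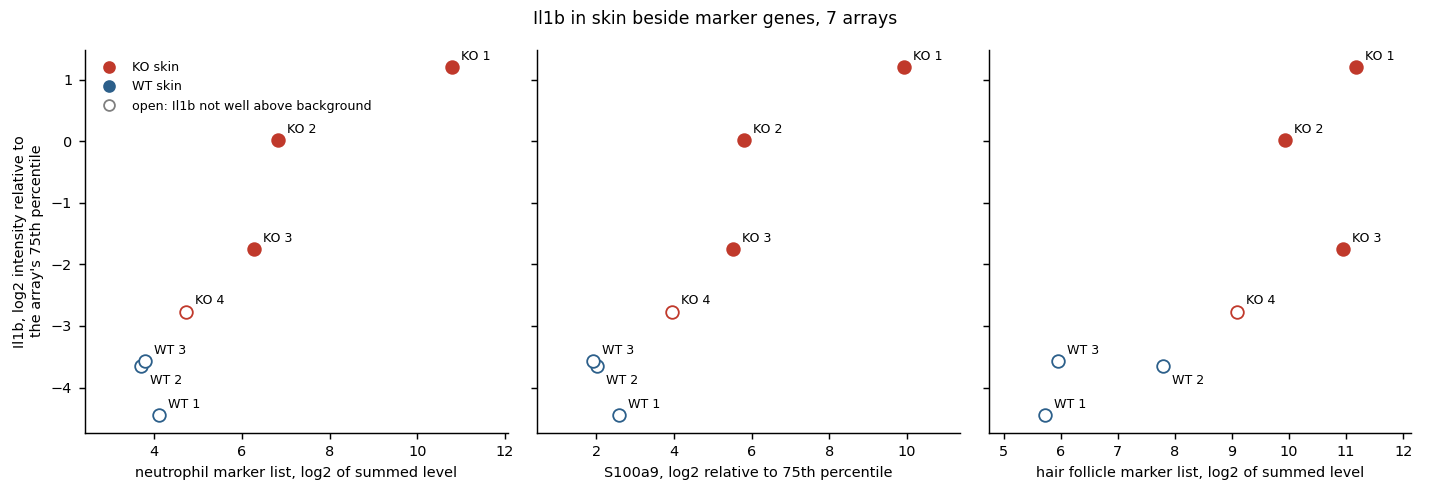
*Il1b* (y axis, log2 intensity relative to the array's 75th percentile) on each of the 7 skin arrays, beside the log2 summed level of the neutrophil marker list (left), the value of *S100a9*, a gene of that list (middle), and the log2 summed level of the hair follicle list (right). KO is red and WT blue, open points are arrays on which the *Il1b* probe was not well above background, and KO 1 lies highest and WT 1 lowest on the *Il1b* axis, at 1.20 and -4.45.

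In liver *Il1b* did not separate the genotypes. It measured -0.69, -0.80 and -1.20 in KO liver, against -0.82, -1.06 and -0.97 in WT liver, and cleared background on all 6 arrays. The difference was 0.053 (SE 0.183, 95% interval -0.38 to 0.49, adjusted p = 1.0 in limma). In fat it measured -1.92, -2.97, -3.37 and -4.26 in KO arrays 1 to 4, against -3.82, -4.27 and -3.57 in the WT arrays used. The 3 highest fat arrays were KO and the groups overlapped through KO 4. The difference in fat was 0.76 (SE 0.503, 95% interval -0.42 to 1.93, adjusted p = 0.756), and the pair of fat arrays on a shared slide differed by 0.60. In the authors' deposited table the KO fat values ran from 4.77 to 6.69 and fat WT 2 stood at 5.42, the highest of the WT fat values, the others lying between 5.13 and 5.30.

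Whether the *Il1b* difference between genotypes itself varied by tissue was tested in the fit of 6 group means. The fitted effect in skin exceeded that in liver by 3.01 (SE 0.995, unadjusted p = 0.00763, adjusted p = 0.398) and that in fat by 2.31 (SE 0.962, unadjusted p = 0.0282, adjusted p = 0.386). Neither passed over all genes, and both values rest on WT skin signals that were not well above background. For *Il33* the fitted effect in skin exceeded that in liver by 0.99 (SE 0.461, unadjusted p = 0.0458, adjusted p = 0.609), which did not pass either. Of the members tested, 0 of 8 were called between skin and fat, 0 of 8 between liver and fat and 0 of 6 between skin and liver, beside 0.423%, 0.0564% and 0.202% of all genes tested. The remaining members had adjusted p-values from 0.441 to 0.999.

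*Il18*, which encodes the other IL-1 family cytokine that caspase-1 activates, cleared background on all 20 arrays. It measured 2.93, 2.21, 2.14 and 2.37 in KO skin, against 2.28, 2.34 and 2.47 in WT skin. In liver it measured 1.46, 1.74 and 1.67 in KO arrays, against 1.66, 1.75 and 1.74 in WT arrays. The genotypes overlapped in both tissues, with differences of 0.047 (SE 0.234) in skin and -0.091 (SE 0.145) in liver. In fat it measured 0.65, 0.68, 0.08 and -0.03 in KO arrays, against 0.42, 0.08 and -0.09 in WT arrays (difference 0.21, SE 0.236). None of the 3 passed (adjusted p = 0.935, 1.0 and 0.835 in limma), and the 95% intervals reached from -0.49 to 0.58 in skin, -0.44 to 0.25 in liver and -0.34 to 0.76 in fat.

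*Il33*, whose product is released from damaged epithelial and stromal cells, measured 2.24, 1.47, 1.08 and 1.28 in KO skin, against 0.58, 1.18 and 1.21 in WT skin. The KO arrays reached higher and the groups overlapped (difference 0.52, SE 0.314, adjusted p = 0.555). In liver it measured -0.69, -1.18 and -1.92 in KO arrays, against -0.84, -0.78 and -0.76 in WT arrays (difference -0.47, SE 0.301, adjusted p = 0.977). The WT liver arrays were close together and the KO liver arrays were spread widely. In fat it measured 0.32, 0.56, -0.42 and -0.33 in KO arrays, against 0.19, 0.26 and 0.61 in WT arrays (difference -0.32, SE 0.273, adjusted p = 0.799). The sign of the difference was thus above 0 in skin and below 0 in liver and fat, and none of them passed.

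*Il1a*, the gene for the form of IL-1 that keratinocytes store, was near background. Its main probe cleared background on 1 of the 20 arrays, liver KO 2, at -1.63, and the other KO liver arrays measured -4.61 and -5.07, against -3.08, -3.31 and -4.09 in WT liver. Liver KO 2 also had the highest summed level of the keratinocyte list among liver arrays, 5.53, against 3.59 and 1.81 in the other KO liver arrays and 1.32, 1.42 and 5.01 in WT liver 1 to 3. The part of such cells in this value was not tested. In skin *Il1a* measured -2.66, -3.50, -4.52 and -4.62 in KO arrays, against -4.21, -3.76 and -4.89 in WT arrays, with no array clearing background. The second *Il1a* probe cleared background on none of the 20 arrays, and the 2 probes correlated with r = 0.671 over them.

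*Il1rn*, the antagonist, cleared background on all 20 arrays by its brighter probe. It measured 2.72, 1.61, 1.71 and 1.67 in KO skin, against 2.56, 1.58 and 1.51 in WT skin. The highest array of each genotype was the dim one, KO 1 and WT 1, with 38.9% and 39.5% of probes well above background. The difference was 0.045 (SE 0.365, adjusted p = 0.962 in limma). In liver it measured 0.67, 0.51 and -0.47 in KO arrays, against 0.53, 0.26 and 0.70 in WT arrays (difference -0.26, SE 0.315, adjusted p = 1.0). In fat it measured -0.03, 0.96, 1.02 and 1.10 in KO arrays, against 0.87, 1.60 and 1.36 in WT arrays (difference -0.51, SE 0.316, adjusted p = 0.741). KO 1 was the lowest fat array, and the other KO arrays lay within the range of the WT arrays. The second *Il1rn* probe cleared background on 1 array, liver WT 2, and correlated with the first with r = 0.0865, so the values of *Il1rn* rest on the brighter probe.

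*Tnf* cleared background on all fat arrays used and on no skin array. In fat it measured -2.82, -1.97, -1.11 and -2.10 in KO arrays, against -2.61, -1.55 and -1.82 in WT arrays. The groups covered nearly the same range (difference -0.0057, SE 0.421, 95% interval -0.99 to 0.98, adjusted p = 0.998 in limma). In the authors' table fat WT 2, at 7.68, was the highest of the 8 fat samples for *Tnf*, and the difference in that table, fitted over the same genes, was -0.23 (SE 0.382). In liver it measured -2.92, -2.38 and -3.61 in KO arrays, against -3.20, -2.78 and -3.36 in WT arrays (difference 0.14, SE 0.327, adjusted p = 1.0). In skin it measured -3.10, -3.94, -4.17 and -4.72 in KO arrays, against -4.09, -4.36 and -4.29 in WT arrays, all not well above background.

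*Il6* could be tested in fat alone. There it measured -4.92, -4.08, -3.37 and -4.44 in KO arrays, against -3.81, -3.89 and -3.68 in WT arrays, and cleared background on 2 arrays of each genotype. The difference was -0.41 (SE 0.340, 95% interval -1.20 to 0.38, adjusted p = 0.799 in limma). In the authors' table fat WT 2 was the highest fat sample for *Il6*, at 6.19, and the difference was -0.44 (SE 0.187, unadjusted p = 0.0459, adjusted p = 0.410). In skin *Il6* measured -1.99, -2.85, -4.21 and -4.79 in KO arrays, against -4.47, -4.34 and -4.32 in WT arrays, and none was well above background, so no order is read from them. The lowest signal that counted as well above background differed between these arrays, at -2.20, -2.73, -3.86 and -3.00 in KO skin 1 to 4, against -2.53, -3.14 and -3.19 in WT skin. In liver *Il6* lay between -4.45 and -4.28 in KO arrays, against -4.57 to -4.12 in WT arrays.

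The 250 bases before the start of *Il1b* and *Il6* are shown because *Il1b* had the widest gap between genotypes and the window of *Il6* held the most kinds of the letters searched. They are from RefSeq on build GRCm38.p6, at chr2:129371140-129371389 on the minus strand and chr5:30012864-30013113 on the plus strand. Capitals mark the TATA box letters (TATAAA) in *Il1b*, and, from left to right, the AP-1 letters (TGANTCA), the C/EBP letters (TTGCNNAA, on the other strand) and the NF-κB consensus in *Il6*.
Il1b: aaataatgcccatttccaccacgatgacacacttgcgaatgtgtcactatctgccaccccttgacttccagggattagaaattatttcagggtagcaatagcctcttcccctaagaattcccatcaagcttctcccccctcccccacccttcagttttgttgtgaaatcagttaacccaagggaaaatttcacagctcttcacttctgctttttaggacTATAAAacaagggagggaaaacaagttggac
Il6: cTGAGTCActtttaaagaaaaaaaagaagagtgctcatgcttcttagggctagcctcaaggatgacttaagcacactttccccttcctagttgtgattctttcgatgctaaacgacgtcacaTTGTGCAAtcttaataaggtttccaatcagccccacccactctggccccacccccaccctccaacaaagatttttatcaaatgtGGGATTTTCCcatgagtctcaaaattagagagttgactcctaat
RefSeq promoters were found for 8 of the 10 members, 11 promoters in all, and both strands were searched. The TATA letters were in 6 of the 11, of *Il1a*, *Il1b*, *Il18*, *Il33* and *Tnf*, beside 12.4% of all 32851 promoters of this length. The AP-1 letters were in 3 of the 11, of *Il1a*, *Il1rn* and *Il6*, beside 6.75% of all. The C/EBP letters were in 2, of *Il6* and *Il33*, beside 9.56% of all, and the NF-κB consensus in 1, of *Il6*, beside 3.9% of all. The CRE letters (TGACGTCA) were also searched and were in 0 of the 11, beside 1.55% of all. A match of letters is a description of the window and not of binding.

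*Tgfb1*, which encodes a cytokine that restrains immune cells and drives matrix production, cleared background on all 20 arrays. It measured -0.03, 0.78, 0.28 and 0.43 in KO skin, against 1.49, 0.55 and 0.55 in WT skin. WT 1 was the highest skin array and the groups overlapped through KO 2 (difference -0.50, SE 0.303, adjusted p = 0.555 in limma). In liver it measured -0.13, 0.50 and 0.12 in KO arrays, against 0.06, 0.09 and -0.07 in WT arrays (difference 0.14, SE 0.193, adjusted p = 1.0). In fat it measured 1.45, 1.47, 1.81 and 1.29 in KO arrays, against 1.37, 2.25 and 1.89 in WT arrays (difference -0.33, SE 0.235, adjusted p = 0.767). In the authors' table fat WT 2 stood at 10.4, near the highest WT fat value of 10.5 and above all 4 KO fat values. The difference in that table was -0.43 (SE 0.220, unadjusted p = 0.0830), also short of the test.

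*Il10*, which encodes the cytokine that shuts off macrophage activation, cleared background on 1 of the 20 arrays, fat KO 3, at -3.50. The other KO fat arrays lay between -5.04 and -4.02, against -4.83 to -4.33 in WT fat. In skin it lay between -4.43 and -3.71 in KO arrays, against -4.34 to -4.12 in WT arrays, and in liver between -5.31 and -3.49 in KO arrays, against -4.96 to -4.29 in WT arrays. At these signals no difference was detectable.

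*Tslp*, probed at chr18:32978885-32978944 on mm9, was tested in fat alone. It measured -1.66, -2.09, -2.04 and -3.87 in KO fat, against -2.45, -3.49 and -3.01 in WT fat. The KO arrays 1 to 3 lay above all WT arrays and KO 4 lay below them (difference 0.56, SE 0.533, 95% interval -0.68 to 1.81, adjusted p = 0.811 in limma). In the authors' table the difference was 0.64 (SE 0.287, unadjusted p = 0.0534, adjusted p = 0.427), with fat WT 2 at 5.91 among the other WT fat values of 5.65 to 6.34. In liver *Tslp* measured -5.37, -5.09 and -5.31 in KO arrays, against -5.32, -5.31 and -0.96 in WT liver 1 to 3. Liver WT 3 was the one liver array on which it was well above background, and the one that set the WT mean. In WT liver the keratinocyte list summed to 5.01 in that array, against 1.32 and 1.42 in the other WT arrays. It was higher, at 5.53, in liver KO 2, where *Tslp* measured -5.09, and the part of such cells was not tested. In skin *Tslp* cleared background on 1 of the 4 arrays from KO mice and 0 of the 3 from WT mice.

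**Figure D3:**
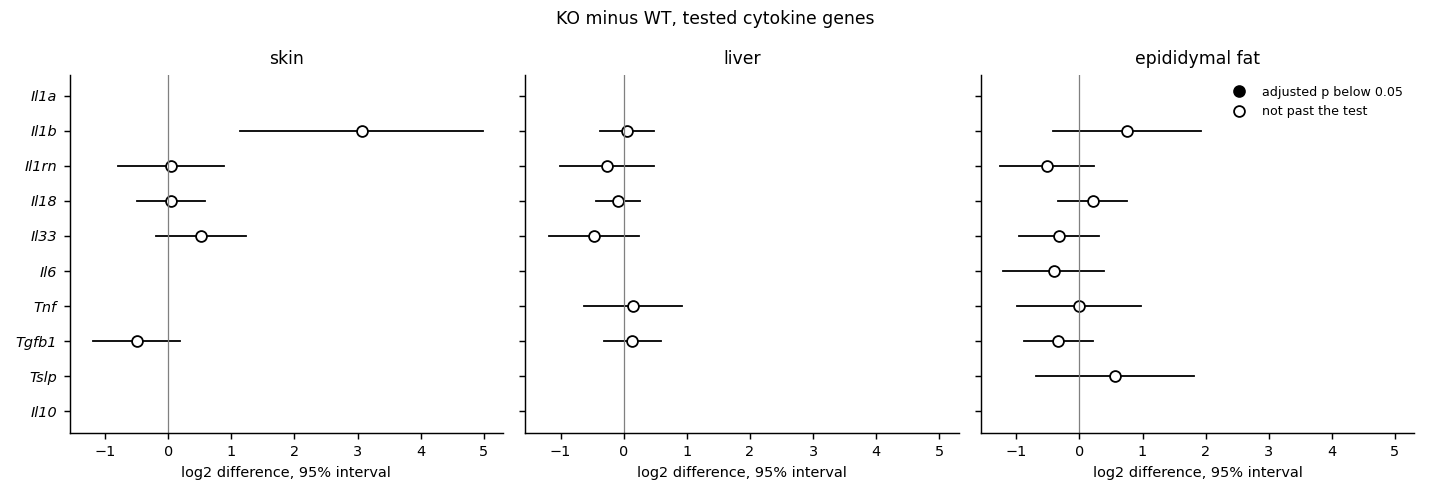
Differences KO minus WT on the log2 scale (x axis, points) with 95% intervals (lines) of the cytokine genes tested in skin, liver and epididymal fat; genes without a point were not tested in that tissue. All points are open, none having passed at an adjusted p below 0.05, and the *Il1b* interval in skin, from 1.13 to 5.00, is the one that leaves out 0; that point is fitted against WT signals not well above background.

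**Figure D4:**
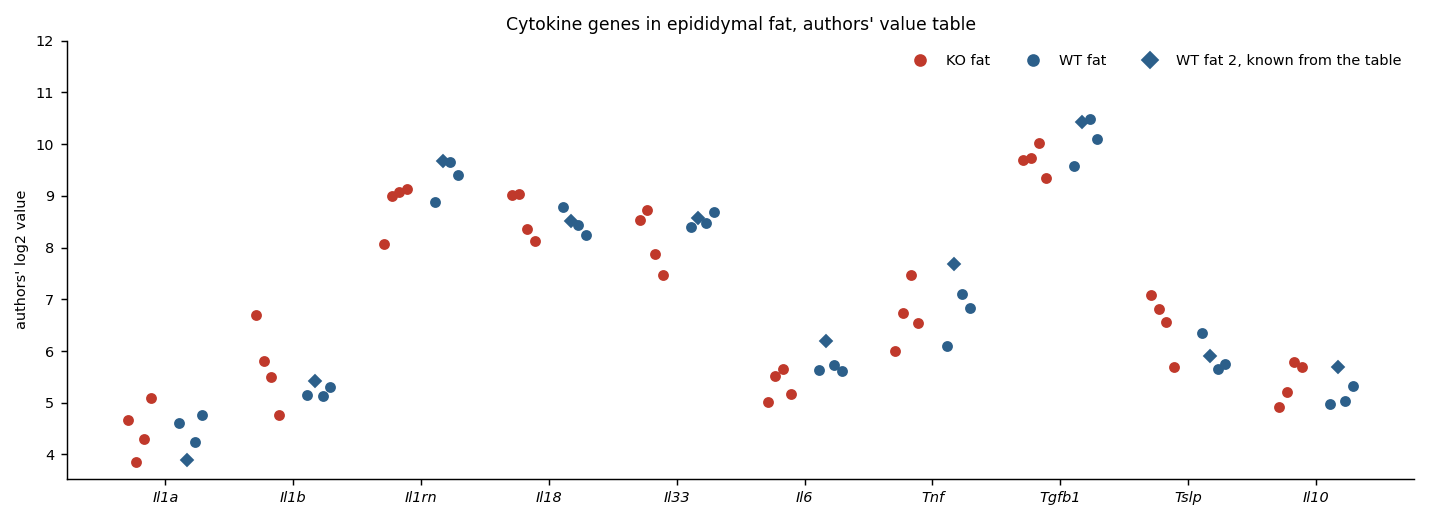
The authors' deposited log2 values of the 10 cytokine genes (y axis) in the 8 fat samples, with KO left of WT for each gene and fat WT 2 drawn as a diamond. Fat WT 2 is the highest of the 8 samples for *Tnf* (7.68) and *Il6* (6.19).

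Between tissues of WT mice the calls on these genes were many, as they were over all genes. Of the members tested in either tissue of a pair, 6 of 6 were called between skin and liver, 3 of 8 between skin and fat and 5 of 8 between liver and fat. Over all genes tested the share called was 64.3% (29.7% higher and 34.7% lower in skin), 57.5% (26.6% higher and 30.9% lower in skin) and 61.4% (30.1% higher and 31.4% lower in liver). Of the members, 4 were higher and 2 lower in skin than in liver, 1 higher and 2 lower in skin than in fat, and 2 higher and 3 lower in liver than in fat. Each such difference compares arrays of different tissues scaled to their own 75th percentile, with median differences over all genes of -0.14, -0.16 and -0.045. The values below are from the fit of 6 group means in limma.

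*Il18* was ordered skin, liver, fat, and each step passed. It averaged 2.37 ± 0.10 in WT skin, 1.72 ± 0.05 in WT liver and 0.14 ± 0.26 in WT fat (SD, n = 3 arrays each). Skin was higher than liver by 0.65 (SE 0.225, adjusted p = 0.0180), skin higher than fat by 2.23 (SE 0.227, adjusted p = 4.54e-07) and liver higher than fat by 1.58 (SE 0.227, adjusted p = 1.13e-05). Without skin WT 3 the step between skin and liver did not pass (0.60, adjusted p = 0.0553).

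*Tgfb1* was ordered fat, skin, liver. It averaged 0.86 ± 0.54 in WT skin, 0.03 ± 0.08 in WT liver and 1.84 ± 0.45 in WT fat (SD, n = 3 arrays each). Skin was higher than liver by 0.84 (SE 0.279, adjusted p = 0.0145) and lower than fat by a difference of -0.97 (SE 0.281, adjusted p = 0.00724), although skin WT 1 and fat WT 1 overlapped. Liver differed from fat by -1.81 (SE 0.281, adjusted p = 2.58e-05). Without skin WT 1, the dim array, skin and liver differed by 0.53 and the call was lost (adjusted p = 0.0972). With the scanner file of fat WT 2 included, skin and fat differed by -0.54 and did not pass (adjusted p = 0.261). That file correlated with the skin arrays, so its inclusion cannot show whether the call is stable. In the authors' table, which has fat WT 2, the difference was -1.09 and passed (adjusted p = 8.93e-04 in limma).

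*Il33* averaged 0.99 ± 0.36 in WT skin, -0.79 ± 0.04 in WT liver and 0.35 ± 0.22 in WT fat (SD, n = 3 arrays each). Skin was higher than liver by 1.78 (SE 0.337, adjusted p = 1.75e-04) and liver lower than fat by a difference of -1.14 (SE 0.338, adjusted p = 0.00723). Skin and fat, neighbours in this order, differed by 0.64 (SE 0.338, adjusted p = 0.114), which did not pass, and passed in the authors' table (0.64, adjusted p = 0.0486). *Il1rn* had the same order, at 1.88 ± 0.59 in WT skin, 0.50 ± 0.22 in WT liver and 1.28 ± 0.37 in WT fat (SD, n = 3 arrays each). Skin was higher than liver by 1.39 (SE 0.387, adjusted p = 0.00464), and its other steps did not pass (adjusted p = 0.188 for skin and fat, 0.0904 for liver and fat). Liver and fat differed by -0.89 and passed with quantile normalization (adjusted p = 0.0448) and in the authors' table (adjusted p = 0.0320). With the mean of both *Il1rn* probes, skin and liver differed by 0.50 and did not pass (adjusted p = 0.332).

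*Il1b* was highest in WT liver. It averaged -3.89 ± 0.48 in WT skin, -0.95 ± 0.12 in WT liver and -3.89 ± 0.36 in WT fat (SD, n = 3 arrays each). For skin minus liver the fitted difference was -2.94 (adjusted p = 0.00190 in limma), taken against WT skin signals that were not well above background. Under the scanner's own background subtraction the level was at least 4.02-fold lower in WT skin than in WT liver. This bound was not itself tested. Without 1 array at a time the bound lay between 3.70-fold and 4.65-fold. With normexp background correction the fitted difference was smaller, at -0.95, and passed (adjusted p = 0.0250). Liver was higher than fat by 2.94 (SE 0.726, adjusted p = 0.00205). Skin and fat could not be ordered, with a difference of -0.0039 (SE 0.727, adjusted p = 0.997). In KO mice *Il1b* averaged -0.83 ± 1.77 in skin (SD, n = 4 arrays), -0.90 ± 0.27 in liver (SD, n = 3) and -3.13 ± 0.97 in fat (SD, n = 4), so KO skin spanned the level of KO liver.

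*Tnf* was highest in fat. It averaged -4.25 ± 0.14 in WT skin, -3.11 ± 0.30 in WT liver and -1.99 ± 0.55 in WT fat (SD, n = 3 arrays each). For skin minus fat the fitted difference was -2.25 (adjusted p = 3.21e-04 in limma), taken against WT skin signals that were not well above background. As a bound that was not itself tested, the level was at least 1.95-fold lower in WT skin than in WT fat. The bound lay between 1.67-fold and 2.42-fold without 1 array at a time. This bound holds for the scanner's own background subtraction, and with normexp correction skin differed from fat by -0.058 and the call was lost (adjusted p = 0.874). Skin and liver differed in the test (adjusted p = 0.0290). No fold can be given, since the WT liver mean of -3.11 lay below the lowest skin signals above background, which averaged -2.96. Liver and fat differed by -1.12 (SE 0.431, adjusted p = 0.0324). These *Tnf* calls were the least stable, the skin and liver call ending in 7 of 14 alternatives and the liver and fat call in 7 of 15. *Il6* and *Tslp* did not pass for skin minus fat or liver minus fat, and were not tested for skin minus liver. In the authors' table *Il6* did pass, at -0.76 for skin minus fat (adjusted p = 0.00674) and -0.64 for liver minus fat (adjusted p = 0.0187). The *Il6* probe cleared background on 0 of 3 WT skin, 0 of 3 WT liver and 2 of 3 WT fat arrays, so these are not measured folds. *Tslp* passed for liver minus fat once liver WT 3 was left out (adjusted p = 0.00139), when no WT liver array was left that cleared background.

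**Figure D5:**
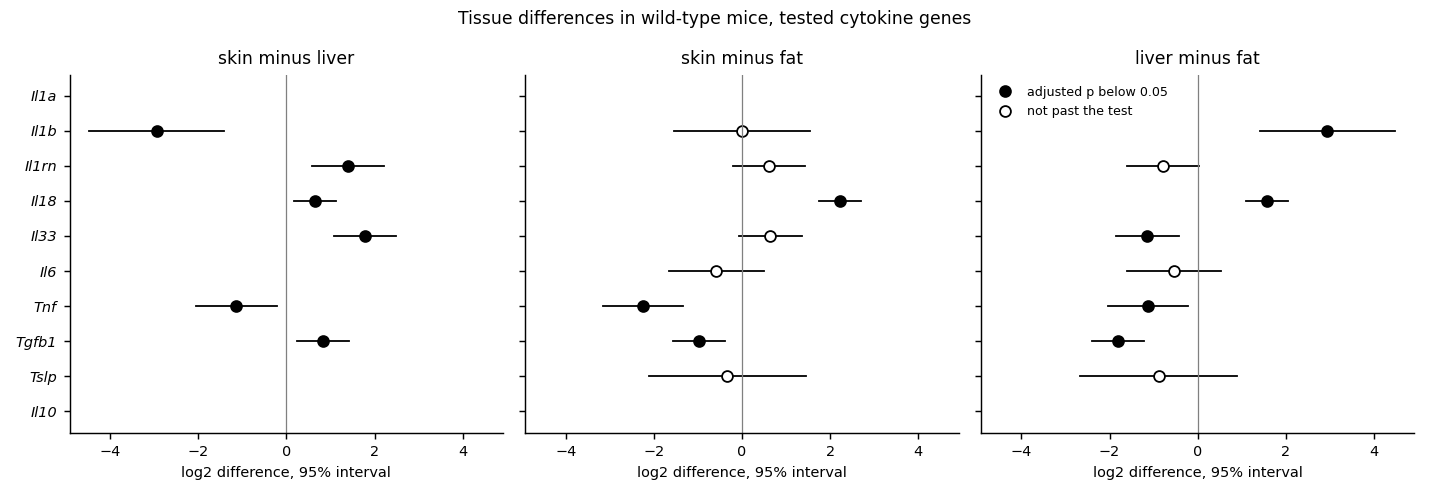
Differences between tissues of WT mice on the log2 scale (x axis, points) with 95% intervals (lines), for skin minus liver, skin minus fat and liver minus fat. Filled points passed at an adjusted p below 0.05, open points did not; *Il18* lies at 0.65, 2.23 and 1.58, and the points of *Il1b*, *Tnf*, *Il6* and *Tslp* that involve skin are fitted against skin signals not well above background.

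The genes around these cytokines gave no call between genotypes either. Lists of related cytokines, receptors, processing enzymes, signal transducers and targets held 0 called genes in each of the 3 tissues. Over all genes tested the share called was 0.0148% in skin, 0.0226% in liver and 0.0131% in fat, so 0 calls say little about lists of this size. The counts above 0 given below stand beside 39.4%, 49% and 62.3% of all genes tested. The medians stand beside -0.10, -0.0048 and 0.076 over all genes tested. Of the other IL-1 family cytokines, which are epithelial products, 5 of 5 were tested in skin, and all 5 had a difference above 0, with a median of 0.63 beside -0.10 over all genes. Their summed level was 6.02, 3.44, 3.81 and 3.63 in KO skin, against 4.51, 3.52 and 3.58 in WT skin, so KO 1 was the one KO array above the WT range. Among them *Il36g*, which encodes IL-36γ, differed by 1.01 (SE 0.551, adjusted p = 0.555) and *Il36a*, which encodes IL-36α, by 1.63 (SE 1.22, adjusted p = 0.578). In liver and fat 0 of these 5 genes were tested. Of the receptors and binding proteins, 6 of 18 tested genes had a difference above 0 in skin (median -0.26), 8 of 14 in liver (median 0.04) and 8 of 19 in fat (median -0.07).

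In skin *Crlf2*, a subunit of the TSLP receptor, differed by -0.47 (SE 0.197, adjusted p = 0.555), and *Il1rap*, the accessory chain of the IL-1 receptor, by 1.06 (SE 0.522, adjusted p = 0.555). In fat *Il1rl1*, the IL-33 receptor, differed by -0.81 (SE 0.304, adjusted p = 0.584) and *Tnfrsf1b*, the second TNF receptor, by -0.65 (SE 0.255, adjusted p = 0.594). The macrophage and monocyte list in fat had 14 of 16 tested genes below 0 (median -0.48, 0 called), and summed to between 8.92 and 9.81 in KO fat, against 9.77 to 10.2 in WT fat. *Itgam*, the gene for CD11b, differed by -1.33 there (SE 0.315, adjusted p = 0.490) and *Itgax*, the gene for CD11c, by -1.08 (SE 0.303, adjusted p = 0.526). The fat neutrophil list summed to between 3.27 and 5.05 in KO arrays, against 2.61 to 3.33 in WT arrays. The part of these cells in the fat values of the cytokines was not tested. Of the processing genes, *Casp1*, whose protease cuts the IL-1β and IL-18 precursors, differed by 0.61 in skin (SE 0.458, adjusted p = 0.578) and by -0.35 in fat (SE 0.248, adjusted p = 0.769). Of the signal transducers, 7 of 28 tested genes had a difference above 0 in skin (median -0.21), 15 of 29 in liver (median 0.00) and 23 of 29 in fat (median 0.08). Of the genes for processing and release, 5 of 12 had a difference above 0 in skin, 5 of 10 in liver and 5 of 12 in fat. Of the other cytokines of the IL-6, TNF and TGF-β families, 0 of 4 had one above 0 in skin, 1 of 6 in liver and 6 of 8 in fat. Of the T-cell and dendritic-cell cytokines it was 2 of 4 in skin, 3 of 4 in liver and 5 of 7 in fat. Of the feedback inhibitors and target genes it was 9 of 18 in skin, 5 of 20 in liver and 14 of 19 in fat, and *Saa3* in fat differed by 1.21 (SE 0.361, adjusted p = 0.556 in limma).

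Between WT tissues the lists of partners are given by their counts, beside the shares of all genes given above. Of the receptors and binding proteins, 7 were higher and 6 lower of 18 tested for skin minus liver, 1 higher and 11 lower of 19 for skin minus fat, and 2 higher and 11 lower of 19 for liver minus fat. Of the signal transducers it was 5 higher and 9 lower of 29, 4 higher and 13 lower of 29, and 8 higher and 7 lower of 29. Of the processing genes it was 5 higher and 3 lower of 12, 5 higher and 6 lower of 13, and 2 higher and 7 lower of 12. Of the feedback inhibitors and target genes it was 3 higher and 9 lower of 20, 3 higher and 7 lower of 19, and 7 higher and 5 lower of 20. Of the T-cell and dendritic-cell cytokines 0 of 5 were called for skin minus liver. The genes named next are among those with the smallest p-values. *Il1r2*, the decoy receptor that binds IL-1 without signalling, was higher in skin than in fat by 6.35 (SE 0.416, adjusted p = 2.29e-09). It was also called higher in skin than in liver (adjusted p = 1.61e-10), where it cleared background on 1 of 3 WT arrays. *Il18bp*, which encodes the protein that neutralises IL-18, was lower in skin than in liver by a difference of -4.07 (SE 0.254, adjusted p = 3.66e-10). *Il1rap* was higher in liver than in fat by 6.87 (SE 0.470, adjusted p = 1.26e-09), clearing background on all 3 WT liver arrays and 2 of 3 WT fat arrays. *Tnfrsf1b* was lower in skin than in fat by a difference of -2.48 (SE 0.218, adjusted p = 7.93e-08). *Tnf* itself was also called lower in skin than in fat, against skin signals not well above background, and lost that call with normexp correction. Of the other IL-1 family cytokines, 4 of 5 were called higher in skin than in liver and 5 of 5 higher in skin than in fat.

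For the 6 members that cleared background on at least 10 of the 20 arrays, the genes with the most alike pattern over the 20 arrays were found among 16540 tested genes. These arrays share tissues and array scaling, and the points fall into 3 tissues, so the values of r are a description and carry no test. For *Il18* they were *Perp*, *Tgm1* and *Tnfrsf19* (Pearson r of at least 0.971), and for *Tgfb1* *Selplg*, *BC017643* and *Cd37* (r = 0.964, 0.961 and 0.957). *Perp* encodes a desmosome protein and *Tgm1* a transglutaminase of the cornified envelope, while *Selplg* and *Cd37* are leukocyte surface genes. For *Tnf* they were *Vav1*, *Tlr1* and *Bcl2a1b* (r = 0.946, 0.942 and 0.937), and for *Il33* *Ier3*, *Ydjc* and *Endod1* (r = 0.965, 0.940 and 0.939). For *Il1rn* they were *Aurka*, *Cdca8* and *Plk1*, which encode proteins of mitosis (r = 0.952, 0.924 and 0.919). For *Il1b* they were *1700084E18Rik*, *Ribc1* and *Irg1* (r = 0.857, 0.856 and 0.847). *Irg1*, an enzyme gene of activated macrophages, measured 1.11, 0.17, -2.16 and -2.77 in KO skin, against -4.77, -5.38 and -3.03 in WT skin.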

How the data were processed

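RNA of 21 samples was hybridised to Agilent 1-colour arrays. Per the file headers, the deposited scanner scans give spot intensity from Feature Extraction 10.7.3.1 on probes placed on build mm9, background-subtracted and not scaled between arrays. The authors' deposited values are log2, their normalization and centring not stated (the submitters' processing notes name limma).

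Spots not marked as outliers were averaged per probe, and log2 was taken and the 75th percentile of each array subtracted (R 4.3.3). Where a gene name had several probes, the brightest on average over the 20 arrays was used. A probe was well above background where over 0.5 of its spots were, and genes were tested with at least 3 such arrays in the tissue (for tissue differences, in either tissue). KO was compared with WT per tissue in limma 3.58.1, and WT tissues and differences of the KO effect in a fit of 6 group means over 20 arrays (two-sided, Benjamini-Hochberg adjustment over all genes tested, threshold 0.05). Both fits were run on simulated data in which the groups of a gene shared the same spread, so unequal spreads were not tried. The plan had 21 arrays; the scanner file of fat WT 2 entered an alternative only. Errors are SD unless given as SE. List levels are log2 of the summed linear values. The number of arrays limits the precision, and all were scanned on 1 day on 6 slides.

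The genes, the lists (290 of 299 entries found on the array) and the naming rule (all 10 genes, up to 4 genes of a list by p, and 3 alike genes) were chosen with earlier results of these data known. Replicate numbers were not taken as pairs, since same-numbered KO and WT arrays of a tissue correlated with r from -0.195 to 0.170 in their deviations from group means. Figures were drawn with matplotlib.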

Additional observations from a re-analysis of the deposited data

Results flagged for a closer look

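The values of *Il1rn* on a pair of KO arrays stood far from the rest of their group. In KO skin, array KO 1 lay at 2.72 and the others at 1.61 to 1.71, so the gap to its nearest neighbour was 0.906 of the group's whole range, above Dixon's critical value for 4 samples. In KO fat, array KO 1 lay at -0.03 and the others at 0.96 to 1.10, a gap of 0.875 of the range. Of the groups of 4 arrays, 20 sets of values were examined (10 genes in KO skin and KO fat), and chance marks about 1 in 20. The skin array is the dim one, with 38.9% of probes well above background, and dim array WT 1 was likewise the highest WT skin array for *Il1rn*, at 2.56. The part of dimness was not tested.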

How the results depend on the processing

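Of 1129 recomputed values of the cytokine genes, over 63 results, 1045 kept their direction and their side of the threshold, 18 lost a call, 7 gained one and 59 changed sign. Of those that changed sign, 1 had passed the test: *Tnf* between WT skin and WT liver, at 0.10 with normexp background correction. The cause of these changes was not tested, except that fits without an array have fewer samples. The count of members called between genotypes in skin was 1 in the fit of 6 group means, against 0, and between WT skin and WT fat it was 5 in the authors' table, against 3, and the other 158 of 160 counts of members stayed within 1.5 times.

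With normexp, KO minus WT turned to -0.066 for *Il18* and -0.041 for *Il1rn* in skin and 0.050 for *Tnf* in fat, the WT differences to 0.76 (*Il1b*), 0.62 (*Il6*) and 0.59 (*Tslp*) for skin minus fat and 0.37 (*Il6*) and 0.48 (*Tslp*) for liver minus fat, and the *Il33* effect of KO in liver minus fat to 0.15. Quantile normalization turned *Tnf* in fat to 0.0052. Without the dim arrays skin KO 1 and WT 1, *Il18* in skin was -0.17, and without liver KO 1, KO 2 and WT 3, *Il1b* and *Tnf* in liver were -0.26 and -0.62. That liver setting leaves KO 3 as the only KO array, so its values are not differences between groups of arrays. The scanner file of fat WT 2 correlated with the skin arrays, so its inclusion does not test the fat values. With it, the fat differences were -0.23 (*Il18*), 0.096 (*Tgfb1*) and 0.069 (*Tnf*). The effect of KO with it was 0.28 for *Il18* in skin minus fat and 0.14 (*Il18*) and 0.13 (*Il33*) in liver minus fat. In the authors' table WT skin minus fat was 0.36 for *Il1b*, and the effect of KO was 0.0075 for *Tgfb1* in skin minus fat, 0.056 for *Il33* in liver minus fat and -0.079 for *Tnf* in skin minus liver. Slide as a random block turned *Il1b* in WT skin minus fat to 0.015. The mean of all probes turned *Il1rn* in WT liver minus fat to 0.31 and its effect of KO in liver minus fat to -0.24.

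Leaving out each array in turn moved KO minus WT between -0.12 and 0.14 (*Il18*) and between -0.22 and 0.38 (*Il1rn*) in skin, between -0.052 and 0.21 (*Il1b*), -0.48 and 0.096 (*Il1rn*), -0.032 and 0.29 (*Tgfb1*) and -0.15 and 0.46 (*Tnf*) in liver, and between -0.32 and 0.27 (*Tnf*) in fat. WT skin minus fat moved between -0.20 and 0.27 (*Il1b*) and between -0.63 and 0.025 (*Tslp*). The effect of KO moved between -0.37 and 0.15 (*Tgfb1*) and -0.024 and 0.58 (*Tnf*) for skin minus fat, between -0.0098 and 0.61 (*Il1rn*), -0.44 and 0.18 (*Il33*) and -0.15 and 0.47 (*Tnf*) for liver minus fat, and between -0.033 and 0.23 (*Il18*), -0.051 and 0.64 (*Il1rn*) and -0.20 and 0.42 (*Tnf*) for skin minus liver.

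With the replicate number as a block, 0 members were called between genotypes in skin, liver and fat, and 6, 3 and 5 between WT tissues, as without it; *Il1b* in skin was 3.71 (adjusted p = 0.376 in limma). Over all genes, calls between genotypes ranged over the alternatives from 0 to 130 in skin, 0 to 27 in liver and 0 to 54 in fat, and between WT skin and fat from 6004 to 14883. Slide as a random block in liver and the scan day as a block were not run, since the first could not be estimated and there was 1 scan day. Genes near background, among them *Il1a*, *Il10*, *Il6* and *Tslp*, are limited by signal over background.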
